A study of Mus musculus with 6 samples.

Results

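The bone morphogenetic protein (BMP) ligands and the proteins that regulate BMP signalling outside the cell or at its surface were followed in day 3 embryoid bodies, which form when mouse embryonic stem (ES) cells are left to differentiate as floating aggregates. The set holds 8 genes of the 21462 named on the array and was chosen by gene symbol: the ligands Bmp2, Bmp4 and Bmp7, the secreted modulators Bmper, Nog, Chrd and Fst, and the membrane protein Bambi. These genes were read by 10 of the 46632 probes, with 2 probes each for Bmp4 and Bmp7 and 1 for each other gene. Total RNA was measured on 6 Illumina mouse bead arrays on 1 slide. The 3 arrays labelled WT carried RNA from embryoid bodies of wild type E14 ES cells, and the 3 labelled KO carried RNA from embryoid bodies of ES cells with endoglin knocked out, all at day 3 and with no further treatment named. All 6 samples have the strain label C57BL/6, although E14 is not a C57BL/6 line. The sources used here do not state how the endoglin gene was disrupted, how many clones were used or whether replicates came from separate cultures. The p-values therefore reflect the spread between these samples alone, which may be technical, and the number of arrays limits the precision of every value.

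BMPs are secreted dimers that bind pairs of serine-threonine kinase receptors and signal through Smad1, Smad5 and Smad9, which enter the nucleus with Smad4. In the early mouse embryo Bmp4 is required for mesoderm formation, and in differentiating ES cells it promotes mesoderm and its blood and vessel derivatives. Secreted antagonists such as noggin and chordin hold ligands away from their receptors. Endoglin, the product of Eng, assists the receptors of this family.

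Bmp4, Bmper and Chrd are the 3 members whose levels differed most between arrays. Each window below runs from 250 bases before to 50 bases after a transcription start of the gene, is given in the direction of transcription from RefSeq (build GRCm38.p6), and is shown because the 3 genes moved together or in opposite directions across arrays. The windows lie at chr14:46390620-46390919 on the minus strand for Bmp4, at chr9:23222826-23223125 on the plus strand for Bmper and at chr16:20732877-20733176 on the plus strand for Chrd. Capitals mark matches, on either strand, to GGCGCC, a GC-rich element bound by BMP Smads, and to CAGAC, the Smad box.
Bmp4: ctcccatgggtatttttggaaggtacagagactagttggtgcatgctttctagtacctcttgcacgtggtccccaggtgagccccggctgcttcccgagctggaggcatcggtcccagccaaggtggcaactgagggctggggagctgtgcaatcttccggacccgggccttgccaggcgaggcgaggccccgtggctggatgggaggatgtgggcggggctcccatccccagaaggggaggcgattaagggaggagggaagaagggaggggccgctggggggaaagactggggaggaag
Bmper: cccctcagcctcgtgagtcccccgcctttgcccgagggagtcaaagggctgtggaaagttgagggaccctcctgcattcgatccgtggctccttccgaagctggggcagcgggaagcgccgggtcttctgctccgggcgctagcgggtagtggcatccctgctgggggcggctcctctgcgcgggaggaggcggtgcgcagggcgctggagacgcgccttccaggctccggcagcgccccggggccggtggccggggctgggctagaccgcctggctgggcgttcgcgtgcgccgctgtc
Chrd: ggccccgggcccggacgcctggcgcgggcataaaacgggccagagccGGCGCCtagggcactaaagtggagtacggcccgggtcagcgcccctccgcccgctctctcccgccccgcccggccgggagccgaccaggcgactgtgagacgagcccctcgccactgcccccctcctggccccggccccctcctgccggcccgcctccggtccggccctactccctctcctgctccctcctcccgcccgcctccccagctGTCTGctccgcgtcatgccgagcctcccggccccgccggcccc
The Chrd window held 1 match to GGCGCC, beginning 203 bases before the start, and 1 to the reverse complement of CAGAC, beginning 7 bases after it. Matches to GGCGCC occur in 11.9% and matches to CAGAC in 49.6% of the 32851 promoter windows of this length, and the other motifs searched, TCACACC (a T-box core) and TATAAA (the TATA box), occur in 3.98% and 13.6%. The Bmp4 and Bmper windows held none of the 4 motifs, which says only that these letters are not in these windows. CpG dinucleotides numbered 12 in the Bmp4 window, 31 in the Bmper window and 34 in the Chrd window.

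The libraries labelled WT replicate 3 and KO replicate 1 stood apart from the others of their label. Eng, the targeted gene, measured 87.0, 90.6 and 44.4 on WT replicates 1, 2 and 3 and 73.5, 45.4 and 48.7 on KO replicates 1, 2 and 3, where the limit of background was 46.3 to 46.4, so its labels overlap. A second Eng probe, at 35.4 to 43.4, was above the limit on no array. The sources used here do not place this probe relative to the deleted part, so it is a limited check. Features (named genes and unnamed probes) at least 2-fold apart were counted on the background-corrected log2 scale. The library labelled WT replicate 3 had 104 and 98 such features against WT replicates 1 and 2 but 0 against KO replicates 2 and 3. The library labelled KO replicate 1 had 84 and 79 against KO replicates 2 and 3 but 0 and 2 against WT replicates 1 and 2. WT replicate 1, KO replicate 1 and WT replicate 2 occupied positions A, B and C of the slide, and KO replicate 2, WT replicate 3 and KO replicate 3 positions D, E and F. Directions below follow the labels as deposited. Each difference of a single gene between the labels is given with all 6 arrays and without WT replicate 3 and KO replicate 1. An exchange of these 2 labels was not tested, and it would change every label mean, difference and interval printed here. These 2 arrays were left out for their values, so that calls made without them are not independent evidence of an effect of the knockout.

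Day 3 embryoid bodies expressed streak and mesoderm genes, and part of these genes differed between arrays of the same label. All 11 of 11 streak and nascent mesoderm markers passed the background filter, among them Mesp1, a factor of the earliest cardiovascular mesoderm, at 3723, 3379 and 549 under the WT label and 3105, 797 and 849 under the KO label. A range of at least 1 log2 unit was reached by 4 of the 11. The summed intensity of the list ran from 13174 to 22276 under WT and from 15372 to 22093 under KO. Of 8 haemangioblast markers 6 passed, with summed intensities of 2180 to 6587 and 2188 to 6066, and Gata1 and Gfi1b stayed below the filter. Primed epiblast markers (5 of 5 passed) had sums of 17009 to 26483 and 21317 to 23793, with Pou3f1 at 204, 191 and 612 under WT and 204, 631 and 505 under KO. Naive pluripotency markers (11 of 12) summed to 6478 to 8336 and 6493 to 8439, and extraembryonic endoderm markers (7 of 9) to 1411 to 2675 and 1602 to 2323. Of 6 neural markers 3 passed (sums of 214 to 238 and 231 to 248, Sox1 and Pax6 below the filter). Of 8 fibroblast markers 3 passed, and Col1a1, Col1a2, Col3a1, Lum and Postn were below the filter. Dcn, at 39.9 to 49.3, passed only through the 3 KO arrays and lay close to background. The sums of the streak, haemangioblast and extraembryonic endoderm lists were higher on WT replicates 1 and 2 and KO replicate 1 than on the other 3 arrays, and those of the primed and naive lists were lower. Of the 2 widest-ranging genes in each list, Mesp1, Tbx6 (141 to 555 over the 6 arrays), Tal1 (171 to 857), Etv2 (1392 to 4758), Gata6 (492 to 1530) and Tbx3 (78.5 to 402) were high on WT replicates 1 and 2 and KO replicate 1, and Pou3f1, Fgf5 (1320 to 2342), Amn (93.8 to 255) and Esrrb (135 to 241) were high on the other 3 arrays. Tbx3 thus ran against most of the naive list, and Amn against Gata6. Dab2 (150 to 296) and Ttr (37.3 to 60.3) ran as Amn did. In the streak list, Fgf8 (1017 to 1421) was high on WT replicate 3 and KO replicates 2 and 3. Gsc (2558 to 3649) was highest on KO replicates 2 and 3 and is the streak marker called higher below. Both ran against most of that list, and Eomes (1146 to 1382) showed no split between the arrays. The sums are weighted to bright genes, with Dnmt3b alone at 12907 to 21110 in the primed list. With all 6 arrays 0 members of any marker list were called in limma. Without WT replicate 3 and KO replicate 1, limma called 1 streak marker higher and 7 lower under KO, 5 haemangioblast markers lower, 5 naive markers higher and 1 lower, 3 primed markers higher, 3 extraembryonic endoderm markers higher and 4 lower, 1 neural marker higher and 1 fibroblast marker lower, where 3.77% of all features were called higher and 4.28% lower. Of these called markers, Runx1 and Sox7 passed the filter only through WT replicates 1 and 2 and KO replicate 1. Ttr passed only through the other 3 arrays. Their calls compare signal with background. Among neural and fibroblast markers, Tubb3 ran from 58.9 to 85.6, Nes from 102 to 129, Thy1 from 161 to 198 and Vim, which mesoderm also expresses, from 1793 to 4269. In bulk RNA, fewer cells of a type and less RNA per cell cannot be told apart, and the part of these lists in the results on BMP genes was not tested.

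Of the ligands, Bmp4 was high on 3 arrays and low on the other 3. Its brighter probe (ILMN_1215252) measured 434, 515 and 116 on WT replicates 1, 2 and 3 and 439, 101 and 118 on KO replicates 1, 2 and 3. WT replicates 1 and 2 and KO replicate 1 were therefore high, the remaining arrays were low, and the labels overlap. Within the WT label, replicate 1 was 3.74-fold and replicate 2 4.44-fold above replicate 3, and within the KO label, replicate 1 was 4.35-fold above replicate 2 and 3.73-fold above replicate 3, as ratios of deposited intensities. The second Bmp4 probe (ILMN_1235698) was dimmer and was high on the same 3 arrays, with 66.1, 78.0 and 38.9 under WT and 65.3, 43.2 and 37.3 under KO. It rose above background on WT replicates 1 and 2 and KO replicate 1 and on no other array.

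Bmp7, a ligand of broad epithelial expression that can pair with Bmp2 or Bmp4, was nearly level. Its brighter probe (ILMN_2589662) measured 162, 169 and 141 under WT and 169, 187 and 168 under KO, and the labels overlap. The highest array was 1.33-fold above the lowest. The other Bmp7 probe (ILMN_1249526) was at 39.9 to 50.4 and passed the limit on KO replicate 3 alone. Bmp2, the closest relative of Bmp4, was not above background on any of the 6 arrays, with intensities of 32.5 to 41.4, so neither its level nor a difference could be measured.

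Bmper, a secreted BMP-binding protein known from endothelial precursors that can restrain or promote BMP signalling depending on context, showed the pattern of Bmp4. It measured 298, 305 and 51.6 on WT replicates 1, 2 and 3 and 271, 49.8 and 68.4 on KO replicates 1, 2 and 3. The same 3 arrays were high as for Bmp4, and the remaining 3 lay just above background, at 49.8 to 68.4. WT replicate 1 was 5.78-fold and WT replicate 2 5.91-fold above WT replicate 3, and KO replicate 1 was 5.45-fold above KO replicate 2 and 3.97-fold above KO replicate 3. With background signal in both terms, these ratios understate the change in transcript.

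Chrd, which encodes chordin, an antagonist that binds BMP2, BMP4 and BMP7 and is made in the organizer and axial mesendoderm, ran the opposite way. It measured 613, 718 and 1508 on WT replicates 1, 2 and 3 and 636, 1660 and 1582 on KO replicates 1, 2 and 3. The arrays with high Bmp4 and Bmper were those with low Chrd, without exception among the 6, and the labels again overlap. WT replicate 3 was 2.46-fold above WT replicate 1 and 2.10-fold above WT replicate 2, and KO replicates 2 and 3 were 2.61-fold and 2.49-fold above KO replicate 1.

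Fst encodes follistatin, which binds activins tightly and some BMPs more weakly. It was bright and nearly level, at 1595, 1917 and 1881 under WT and 1684, 2049 and 1938 under KO, with 1.28-fold between the lowest and the highest array. The labels overlap. WT replicate 1 and KO replicate 1 were the lowest arrays.

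Nog and Bambi were not above background on any array. Nog, which encodes the antagonist noggin, lay at 30.6 to 42.5. Bambi encodes a membrane pseudoreceptor without a kinase domain that dampens BMP and TGF-beta signalling and is itself induced by BMP. It lay at 32.9 to 46.2, with WT replicate 1 just below the limit. With 1 probe for each of Bmp2, Nog and Bambi, a level under the limit says only that these probes gave no signal above background.

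**Figure D1:**
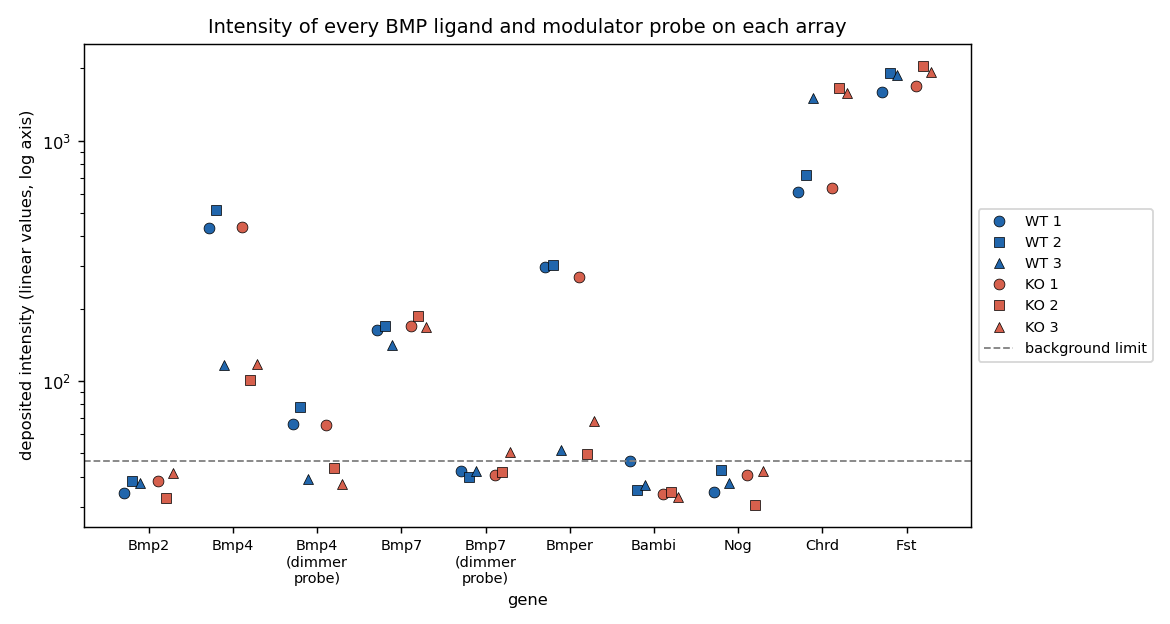
Deposited intensity (log axis) of all 10 probes of the 8 genes, with 1 point per array, blue for WT and red for KO, and a dashed line at the background limit. For Bmp4 and Bmper, WT 1, WT 2 and KO 1 lie high and WT 3, KO 2 and KO 3 low, Chrd shows the reverse, Bmp7 and Fst are level, and Bmp2, Nog and Bambi stay under the line.

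No member passed the test between the labels when all 6 arrays were used. Of the 8 genes, 5 passed the filter (above the limit on at least 3 arrays) and entered the fit, and of these 0 were called higher and 0 lower under KO in limma at an adjusted p under 0.05. Over all 16618 features 0 were called, or 0%, while 363, or 2.18%, had an unadjusted p under 0.05. In 0 of the 5 members did the 3 WT arrays all lie on one side of the 3 KO arrays, against 6.99% of all features.

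On the log2 scale after normexp background correction, which adds an offset of 50 and so shrinks differences of dim genes, Bmp4 averaged 8.34 ± 1.07 (SD, n = 3) under WT and 7.65 ± 1.05 (SD, n = 3) under KO. Its difference of -0.69 (SE 0.63) had a limma adjusted p of 0.999 and a 95% interval of -2.15 to 0.76, which covers changes in both directions. For Bmper the means were 7.63 ± 1.22 and 6.97 ± 1.08 (SD, n = 3 each), and the limma difference of -0.67 (SE 0.68) had an interval of -2.26 to 0.93. For Chrd they were 9.81 ± 0.68 and 10.24 ± 0.76 (SD, n = 3 each), with a limma difference of 0.43 (SE 0.43) and an interval of -0.56 to 1.43. These wide intervals come with the spread of the arrays inside each label.

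The level genes were measured more tightly. Bmp7 averaged 7.49 ± 0.12 under WT and 7.62 ± 0.08 under KO (SD, n = 3 each), with a limma difference of 0.13 (SE 0.08) and an interval of -0.06 to 0.32. Fst averaged 10.83 ± 0.14 and 10.90 ± 0.14 (SD, n = 3 each), with a limma difference of 0.07 (SE 0.10) and an interval of -0.16 to 0.31. In this fit, the intervals of Bmp7 and Fst exclude differences of 1 log2 unit in either direction. Those of Bmp4 and Bmper exclude such a rise but not such a fall. That of Chrd excludes such a fall but not such a rise. For Bmp4, Bmper and Chrd this holds for the reported fit and scale only. Bmper differed by -0.78 (SE 0.794) without background correction and by -0.955 (SE 1.06) with the background peak subtracted. Trend and robust moderation raised the SE of Bmp4 to 0.81. The limma adjusted p was 0.999 for each of these 5 genes.

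Without WT replicate 3 and KO replicate 1, 3 of the 5 members were called. Bmp4 was then lower under KO by a log2 difference of -1.91 (SE 0.10, limma adjusted p = 7.64e-07) and Bmper by -1.99 (SE 0.11, limma adjusted p = 7.64e-07), while Chrd was higher by 1.26 (SE 0.09, limma adjusted p = 1.11e-05). In that fit 8.05% of all 16618 features were called, 3.77% higher and 4.28% lower. Fst (0.19, SE 0.10) and Bmp7 (0.09, SE 0.09) were not called, with limma adjusted p of 0.32 and 0.649. The 95% intervals of the called genes, -2.13 to -1.68 for Bmp4, -2.23 to -1.76 for Bmper and 1.05 to 1.47 for Chrd, rest on 2 arrays per label.

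Among neighbouring slide positions the labels lay close together. In positions A to C, KO replicate 1 differed from the mean of WT replicates 1 and 2 by -0.10 for Bmp4, -0.14 for Bmper and -0.06 for Chrd on the log2 scale. In positions D to F, the mean of KO replicates 2 and 3 differed from WT replicate 3 by -0.07, 0.13 and 0.10 in the same order. With these position groups (A to C, D to F) entered as a block, the limma difference between the labels was -0.09 (SE 0.08) for Bmp4, -0.005 (SE 0.10) for Bmper and 0.02 (SE 0.08) for Chrd, each with an adjusted p of 1, and 0 features were called. Against this, WT replicate 3 differed from the mean of WT replicates 1 and 2 by -1.84 for Bmp4, -2.12 for Bmper and 1.16 for Chrd. Positions A to C hold the arrays already seen with high Bmp4 and Bmper and low Chrd. The block therefore absorbs that split, and label differences near 0 in this fit follow from the grouping. Slide position thus moves with the levels of these genes, and its part in them was not tested.

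**Figure D2:**
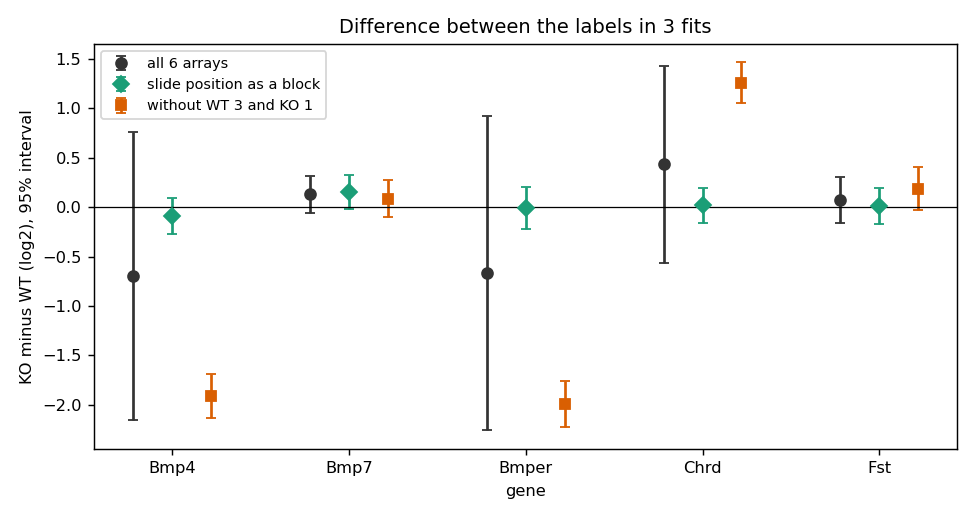
Difference KO minus WT in log2 units with its 95% interval for the 5 members tested, with all 6 arrays (black circles), with slide position as a block (green diamonds) and without WT 3 and KO 1 (orange squares). Bmp4, Bmper and Chrd leave 0 only in the third fit, and Bmp7 and Fst stay near 0 in all 3.

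The 3 varying members ranked high in their spread over the arrays. The range over the 6 arrays was 2.17 log2 units for Bmper, 2.12 for Bmp4 and 1.40 for Chrd, which placed them 13th, 14th and 57th among the 16618 features. A range of at least 1 log2 unit was reached by 149 features, or 0.897%, and the median range was 0.26. Fst and Bmp7 had ranges of 0.36 each. The members were chosen with earlier results of these data known, so these ranks describe the genes and are no test of the set.

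The profiles of Bmp4 and Bmper nearly coincided. After each gene was centred on its mean over the 6 arrays, the root mean square distance between them was 0.12 log2 units, whereas that between Bmp4 and Chrd was 1.55, falling to 0.34 when the sign of Chrd was turned. The 5 named genes nearest to Bmp4 were Pdgfra, a growth factor receptor of early mesoderm, at 0.10, Igf2, an imprinted growth factor, at 0.10, Lefty2, a Nodal inhibitor of nascent mesoderm, at 0.11, and Tbx3, a T-box factor, and Bmper, both at 0.12. Those nearest to Bmper were Tbx3 at 0.08, the ligand gene Fgf10 at 0.10, the chemokine receptor gene Cxcr4 at 0.11, Klhl6 at 0.12 and Bmp4. Those nearest to Chrd were Dnmt3l, a cofactor of DNA methylation, at 0.08, Utf1, a gene of undifferentiated cells, at 0.09, Amn at 0.10, and Dppa4, another pluripotency-associated gene, and Fabp3, a fatty acid binding protein, both at 0.14. These likenesses rest on 6 arrays that fall into 2 clusters, and many genes share such a profile.

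**Figure D3:**
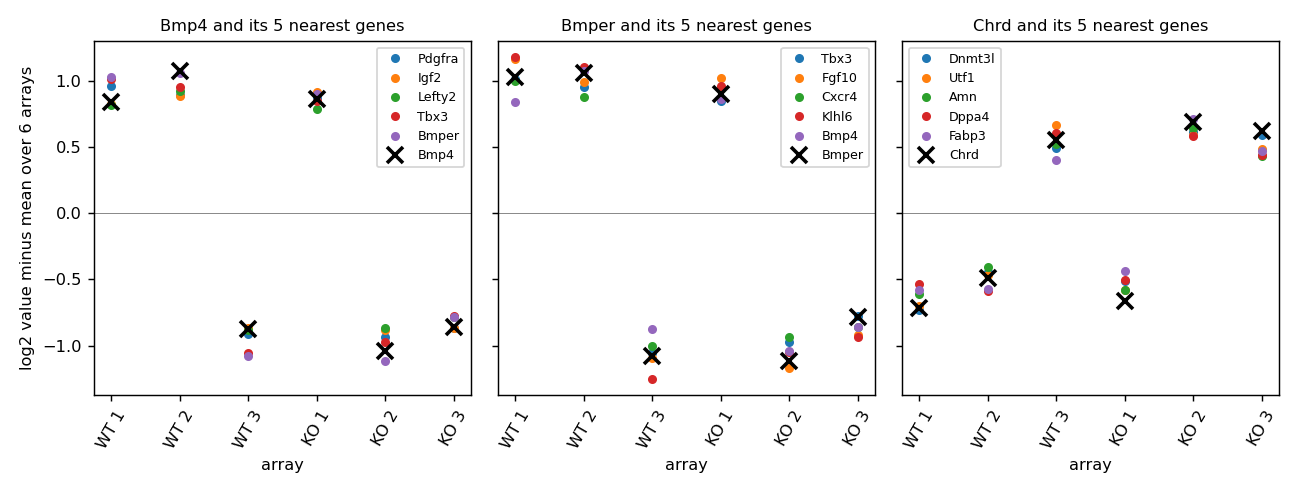
Log2 value minus the gene's mean over the 6 arrays (vertical axis) on each array (horizontal axis) for Bmp4, Bmper and Chrd (black crosses) and the 5 named genes nearest to each (coloured points). Bmp4, Bmper and their neighbours are high on WT 1, WT 2 and KO 1, and Chrd and its neighbours on WT 3, KO 2 and KO 3.

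Among the other ligands, most were dim. Of 17 further BMP and GDF genes, 6 passed the filter, and of these 0 were called in either direction with all 6 arrays, with a median difference of 0.04 against 0.003 over all features. Gdf3, a ligand expressed in pluripotent cells, had the widest range of the 6, at 161, 156 and 331 under WT and 169, 321 and 278 under KO. Its high arrays were the high arrays of Chrd. Gdf10 (41.7 to 61.4), Gdf5 (38.3 to 55.8) and Bmp15 (52.5 to 69.0), the next in range, lay close to background. With all 6 arrays Gdf3 differed by 0.26 (SE 0.30, limma adjusted p = 0.999). Without the 2 arrays, 1 of the 6 was called higher, Gdf3 at 0.83 (SE 0.09, limma adjusted p = 0.000205), and 0 lower. In that fit 3.77% of all features were called higher and 4.28% lower.

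The other extracellular modulators varied less than Bmper and Chrd. Of 23 such genes 11 passed the filter, 0 were called with all 6 arrays, and the median difference was -0.01. Cer1, an antagonist of Nodal, BMP and Wnt ligands, measured 323, 238 and 184 under WT and 282, 255 and 239 under KO. Smoc1, a matricellular BMP inhibitor, measured 225, 271 and 328 against 258, 348 and 356. Twsg1, which joins chordin and BMP in a complex, was bright, at 1097 to 1509. Fstl1, a follistatin-like glycoprotein, ranged from 384 to 573. Bmp1, a protease that cleaves chordin and is no BMP ligand, ranged from 78.5 to 109. None of the 11 reached a range of 1 log2 unit. With all 6 arrays Smoc1 differed by 0.21 (SE 0.16) and Bmp1 by -0.16 (SE 0.10), each with a limma adjusted p of 0.999. Without the 2 arrays 1 was called higher, Smoc1 at 0.47 (SE 0.10, limma adjusted p = 0.0108), and 1 lower, Bmp1 at -0.32 (SE 0.08, limma adjusted p = 0.0398), where 3.77% of all features were called higher and 4.28% lower.

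Of 9 receptor genes, 8 passed the filter and 0 were called with all 6 arrays (median difference -0.07). Their median range over the arrays was 0.56 log2 units, against 0.26 for all features, and none reached 1. The widest range was that of Eng, given above, with a difference of -0.28 (SE 0.22, limma adjusted p = 0.999). Acvr2a, an activin and BMP type II receptor, ranged from 46.5 to 92.5. Tgfbr3, which encodes the co-receptor betaglycan, measured 667, 611 and 996 under WT and 701, 931 and 981 under KO, high where Eng was low. Bmpr1a, the main type I receptor of early embryos, ranged from 345 to 534 with no split between the arrays. With all 6 arrays Tgfbr3 differed by 0.21 (SE 0.19, limma adjusted p = 0.999). Without the 2 arrays, Tgfbr3 was called higher (0.57, SE 0.09, limma adjusted p = 0.00212) and Eng lower (-0.67, SE 0.08, limma adjusted p = 0.000448). The shares over all features in that fit were 3.77% higher and 4.28% lower. KO replicate 2 was below the limit for Eng and KO replicate 3 just above it, so that the size of the Eng difference is poorly measured.

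Of the 8 genes in the Smad list 6 were matched to probes, 3 passed the filter and 0 were called with all 6 arrays. Smad1, a transducer of BMP signals, measured 1217, 1120 and 480 under WT and 1068, 492 and 492 under KO, which is the pattern of Bmp4. Smad4, the partner shared with the TGF-beta branch, was at 3063 to 3138 on all arrays, and Smurf2, a ubiquitin ligase acting on Smads and receptors, at 116 to 151. With all 6 arrays Smad1 differed by -0.43 (SE 0.40, limma adjusted p = 0.999). Without the 2 arrays Smad1 was called lower at -1.21 (SE 0.08, limma adjusted p = 6.09e-06), as were 4.28% of all features.

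Genes known to respond to BMP in embryonic cells had the pattern of Bmp4 in part. All 12 of 12 genes in this list passed the filter, 0 were called with all 6 arrays, and 9 had lower and 3 higher values under KO, with a median difference of -0.27 against 0.003 over all features. Msx1, a homeobox gene, measured 775, 961 and 297 under WT and 756, 294 and 341 under KO. Id1, an inhibitor of basic helix-loop-helix factors, measured 993, 936 and 386 against 826, 496 and 470. Gata2, a factor of blood progenitors, measured 338, 267 and 61.0 against 268, 71.1 and 69.2, and Gata3 measured 186, 172 and 44.2 against 179, 50.7 and 57.7. All 4 were high on the arrays with high Bmp4. Id2, at 97.9 to 120, and Id4, at 64.4 to 73.9, chosen after their values were seen, varied little and were slightly lower on those arrays. Without the 2 arrays 7 of the 12 were called lower and 0 higher (median -0.75), and these were Gata2, Gata3, Msx1, Id1, Hey1, Msx2 and Hand1. Over all features 4.28% were called lower and 3.77% higher in that fit. Hand1 passed the filter only through WT replicates 1 and 2 and KO replicate 1, and its call compares signal with background.

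**Figure D4:**
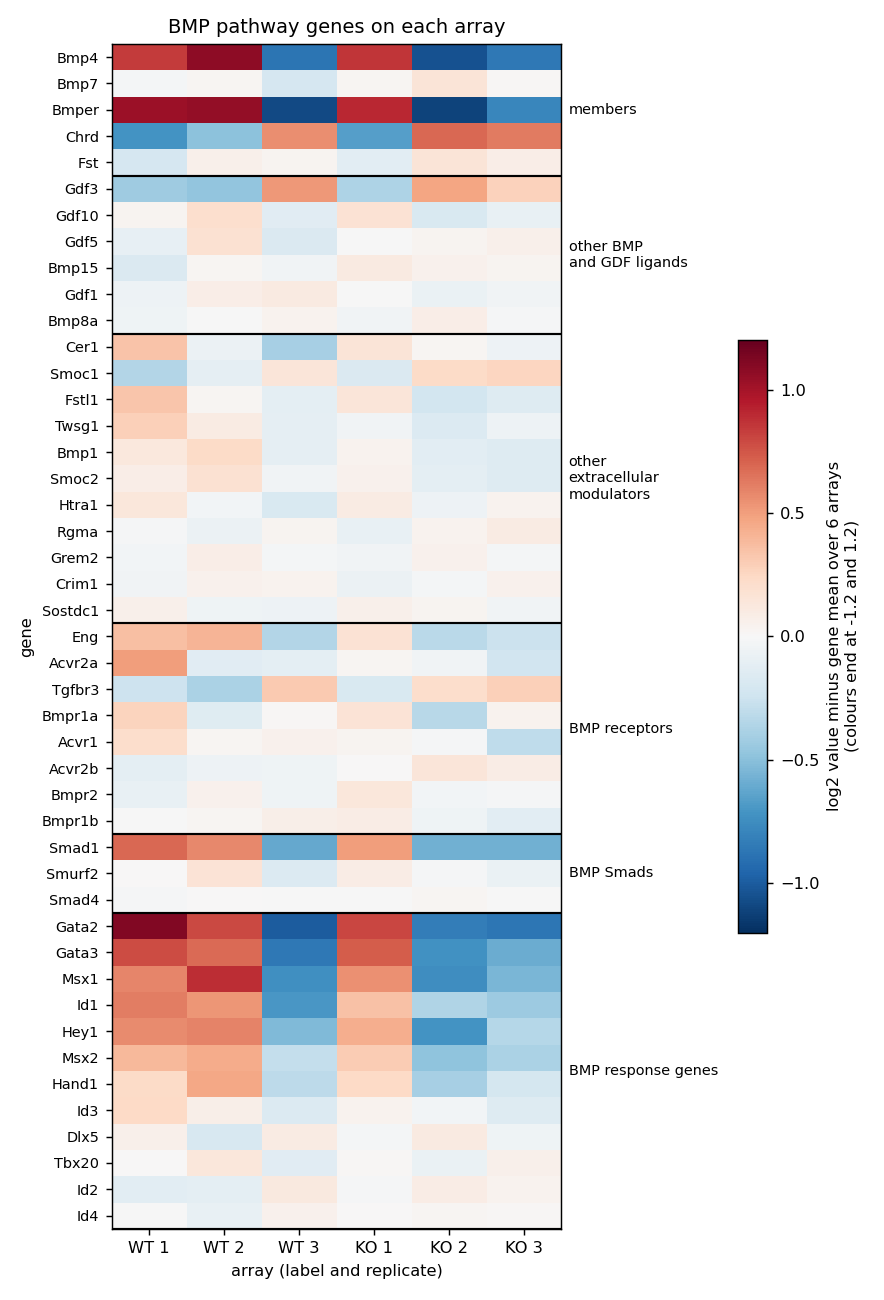
Log2 value minus the gene's mean over the 6 arrays (colour) for each array (columns) and each gene of the BMP lists that passed the filter (rows, grouped by role). Bmp4, Bmper, Smad1, Eng and 7 response genes are among those high on WT 1, WT 2 and KO 1. Chrd, Gdf3, Tgfbr3 and Smoc1 are among those high on WT 3, KO 2 and KO 3.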

How the data were processed

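The deposited table holds linear intensities, 1 for each probe on each array. RNA was extracted with Trizol, treated with DNase and amplified to biotinylated cRNA, per the labels' protocols. The sources used here do not say how the authors normalized these intensities. The 6 columns share the highest value (32123) and medians of 45.1. A second table has 12 value columns whose headings match no sample label. They were not used, and only its symbols were read.

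Background was corrected by normexp with an offset of 50 before the log2 step (limma 3.58.1, R 4.3.3). The background limit per array was the 95th percentile of a normal centred on the most frequent intensity, with the SD of the values below it. Probes above it on at least 3 of 6 arrays (22250 of 46632) were kept, with the brightest probe per gene, which left 16618 features. Probes were named from the platform annotation (29976) or the second table's symbols (5138), with RefSeq gene names. The labels were compared with limma (lmFit, eBayes, two-sided, Benjamini-Hochberg over all features, threshold 0.05). The fit was tested on simulated data with independent noise on each array, which lack the clusters of arrays seen here. Alternatives changed the background correction, the scaling, the filter, the choice of probe, the variance model, the weights, the blocks and the arrays included. Same-numbered WT and KO arrays deviated from their label means with correlations of 0.61, -0.30 and 0.53, so the numbers were not taken as pairs. The genes named were all 8 members, Eng, the widest-ranging genes of each list (up to 4, or 2 for marker lists) and the 5 nearest profiles. Those called in the BMP lists were named too, while most called markers were only counted. Some further genes, such as Id2, Id4, Gsc, Fgf8, Eomes and Dcn, were named after their values were seen. The members and lists were chosen with earlier results of these data known.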

Additional observations from a re-analysis of the deposited data

How the results depend on the processing

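Omitting WT replicate 3 and KO replicate 1 together raised the count of called features from 0 to 1338. It moved the differences of Bmp4 to -1.91, Bmper to -1.99 and Chrd to 1.26, each then past the threshold. That choice was made with earlier results known. Every other alternative gave 0 called features: uncorrected background, the background peak subtracted, a quantile step, no filter, a filter on all 6 arrays, all probes tested, moderation with trend and robust, estimated array weights, both blocks and each array left out. Array weights moved Bmp4 to -1.24, Bmper to -1.24 and Chrd to 0.787 without a call. With slide position as a block the differences were near 0, at -0.0872 for Bmp4, -0.00464 for Bmper and 0.0215 for Chrd. That block matches the split of the arrays in these genes and so absorbs it. In the other settings Bmp4, Bmper and Chrd kept their direction, and Bmp7 did in all. Leaving out single arrays gave differences of -1.31 to -0.33 for Bmp4, -1.37 to -0.276 for Bmper, 0.186 to 0.874 for Chrd and -0.0111 to 0.152 for Fst, which turned sign without WT replicate 1. The cause was not tested. The replicate block left the Bmp4 difference at -0.694 (limma adjusted p = 0.949) and changed no call. The omission of the 2 arrays from the pathway lists was added after the data were seen. Signals near background limit what can be said of Bmp2, Nog and Bambi, which gave no value in the reported fit.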
